A study of Mus musculus with 2 samples.

Results

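Among the tdTomato-positive dendritic cells of the mouse spleen (L-cDC) there was a set of mature cells with transcripts of S100a4 together with Clu, Nrp2, Mfge8 or Ltc4s. Cells were selected on their own UMIs (unique molecular identifiers, counted transcripts) among barcodes with at least 500 genes and at most 10% mitochondrial UMIs. A member had at least 3 UMIs of Fscn1, at least 5 of S100a4, at least 3 of Clu, Nrp2, Mfge8 and Ltc4s together, and 0 of Cd79a and of Nkg7. These thresholds found 325 of 4086 L-cDC cells, a share of 7.95% with an exact Clopper-Pearson 95% interval of 7.14 to 8.83. Both libraries together held 9934 cells that passed the filters. The same thresholds found 26 of 5848 tdTomato-negative cells (M-cDC), 0.445% (0.291 to 0.651). The members were compared with 2219 other mature L-cDC cells, which had at least 1 UMI of Ccr7, at least 3 of Fscn1 and under 5 of S100a4. The M-cDC library held 2840 other mature cells by those thresholds.

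The cells came from spleens of naive mice carrying Il7r-cre and Rosa26-lsl-tdTomato, kept under specific pathogen-free conditions and aged 7 to 9 weeks. Both groups carry both alleles and neither was treated. In such a mouse a cell turns on tdTomato lastingly when it, or an ancestor, has expressed the Cre recombinase from Il7r, the interleukin 7 receptor chain of lymphoid progenitors, so the sort reads a history and not the Il7r transcript of the day. Cells were enriched for CD11c, sorted, and read as 1 library per group with a 3′ droplet kit. There was 1 library per group and so no replicate check: no test was made, and every interval covers counting error only. The number of mice behind each library is not given in the sources used here.

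The L-cDC library held 40170515 UMIs over 4939 barcodes and the M-cDC library 52973960 over 6674. The kept cells had a median of 8700 and 7839 UMIs. Both libraries shared 6 cell barcodes, none of them a member. Summed over cells, the other mature cells of both libraries, with under 5 UMIs of S100a4, were alike in level for most genes. Of 4391 genes with enough counts, 5 were at least 2-fold higher (0.114%) and 9 at least 2-fold lower (0.205%) in the other mature L-cDC cells than in the other mature M-cDC cells. Such sums do not show whether the mix of cells was alike.

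Mature dendritic cells are those that have switched from taking up antigen to carrying it to T cells. They bundle actin with fascin (Fscn1), follow chemokines through Ccr7 and display peptides on MHC molecules. The genes used to choose the members have other roles. Clusterin (Clu) is a secreted chaperone. Neuropilin 2 (Nrp2) is a coreceptor for semaphorins and vascular growth factors that on mature dendritic cells can carry polysialic acid. Mfge8 bridges dying cells to phagocytes, Ltc4s makes leukotriene C4, and S100a4 is a calcium-binding protein of motile cells.

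The 4 summed genes were carried in mixed combinations. Of the 325 members, 46 had UMIs of 1 of them, 115 of 2, 119 of 3 and 45 of all 4. Nrp2 was found in 76.3% of members, Ltc4s in 68.6%, Clu in 54.2% and Mfge8 in 51.1%, and since the sum chose the cells these shares are a description. Their UMIs per member ran from 0 over a median of 3 to 37 for Nrp2 and from 0 over a median of 1 to 55 for Clu. For Ltc4s they ran from 0 over 2 to 18, and for Mfge8 from 0 over 1 to 28. S100a4 ran from 5 over 19 to 139. None of the 4 genes was therefore found in every member, while the median of S100a4 was well above its threshold. Few members sat at an edge: 13 had exactly 5 UMIs of S100a4, where 6 cells that met the other thresholds had 4, and 19 had a sum of exactly 3, where 43 such cells had 2. For Fscn1, 4 members had exactly 3 UMIs and 6 such cells had 2. The 26 M-cDC cells lay closer to the edge of the sum, at a median of 4 UMIs against 11 in members. Of the 26, 11 had a sum of exactly 3, where 28 M-cDC cells that met the other thresholds had 2.

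The steps of the selection removed different numbers of cells in the libraries. In L-cDC 616 cells passed on Fscn1 and S100a4, of which the sum alone removed 257 and Cd79a or Nkg7 removed 34, while in M-cDC 327 passed and the sum removed 301. The S100a4 threshold removed similar numbers: 309 L-cDC and 297 M-cDC cells met every other threshold but had under 5 UMIs of S100a4. Mature cells with the 4 summed genes were thus not confined to the members or to L-cDC. Members were deeper than the cells they were compared with, at a median of 12037 UMIs (3339 to 38292) against 8388, and a threshold in UMIs favours deep cells. When every cell of at least 5000 UMIs was thinned to 5000 before the thresholds were applied, 193 of 3423 L-cDC cells (5.64%, 4.89 to 6.46) and 4 of 4810 M-cDC cells (0.0832%, 0.0227 to 0.213) remained. The genes lie on different chromosomes of GRCm38 (mm10): S100a4 at chromosome 3, 90603771 to 90606045, Nrp2 at chromosome 1, 62703285 to 62818695, Clu at chromosome 14, 65968483 to 65981547, Mfge8 at chromosome 7, 79133768 to 79149060, and Ltc4s at chromosome 11, 50236461 to 50238616. All are protein-coding genes.

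The label of mature dendritic cell was checked on genes that did not choose the members. Ccr7 was found in 301 of the 325 members. Of 27 listed maturation genes with enough counts 20 lay within 2-fold of the other mature cells, with a median log2 ratio of -0.27. Over all genes with enough counts 4277 of 4891 lay within 2-fold, with a median of 0.064. The maturation genes were therefore no closer between the sets than genes at large. Zbtb46, which marks conventional dendritic cells among blood cells, was at 41.8 CPM (the summed UMIs of a set, scaled to the usual common total) in members and 36.6 CPM in the other mature L-cDC cells. Flt3, the growth factor receptor of the lineage, was at 119.7 and 152.9 CPM. Markers of other blood lineages were at 0 in members for 8 of 9 neutrophil genes, 7 of 8 mast cell and basophil genes and 7 of 9 platelet and erythroid genes. They were at 0 for 2 of 10 B cell, 1 of 10 NK cell, 2 of 10 T cell, 2 of 10 innate lymphoid and 1 of 9 red pulp macrophage genes, so low counts of most of these were present. The summed level of 10 B cell genes was 14.8 CPM in members and 47.95 CPM in the other mature cells. For 10 NK cell genes it was 37.0 and 80.8 CPM, and for 10 T cell genes 18.97 and 16.7 CPM. The thresholds kept Cd79a and Nkg7 at 0 in members alone, while 48 of the other mature cells had Cd79a and 53 had Nkg7. The lower B cell and NK cell sums of members follow at least in part from that selection and are no check of the label. The platelet and erythroid list summed to 3.16 and 0.507 CPM. Members were also higher for 9 red pulp macrophage genes, at 112.9 and 50.1 CPM, and for 10 stromal and endothelial genes, at 14.4 and 4.51 CPM with 6 of 10 at 0 in members. The part of these RNAs in the results was not tested.

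H2-M2, the marker of the label that the thresholds left out, was abundant in the members. It encodes a nonclassical MHC class I molecule at chromosome 17, 37480851 to 37483552. Members carried from 0 over a median of 22 to 110 UMIs of it per cell, and the other mature L-cDC cells from 0 over 1 to 78. It summed to 2010 CPM in members, 299.01 CPM in the other mature L-cDC cells and 245.8 CPM in the other mature M-cDC cells. Members were thus 6.72-fold higher (6.499 to 6.95) than the other mature L-cDC cells, a log2 ratio of 2.75, and the ranges of single cells overlapped. A UMI was found in 93.8% of members and 52.9% of the others. With every cell thinned to 3000 UMIs these shares were 89.8% (86.0 to 92.9) and 35.4% (33.4 to 37.5), and 2.21% in 136 resting Xcr1-positive cells of the same library, whose median depth was 16544 UMIs before thinning. The 26 M-cDC cells lay between, at 778.4 CPM.

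**Figure D1:**
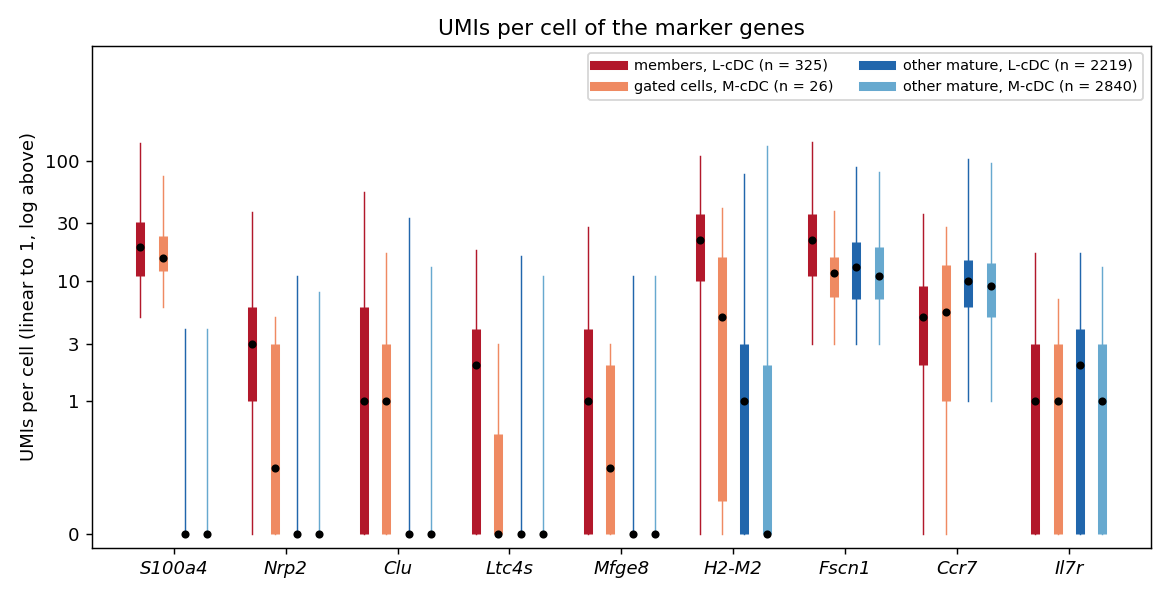
UMIs per cell (vertical axis, linear up to 1 and logarithmic above) of 9 genes in the 325 members, the 26 M-cDC cells that met the same thresholds and the other mature cells of each library. Black points are medians, thick bars the middle quartiles and thin lines the full range; H2-M2 and Il7r were not used to choose any cell, and H2-M2 has a median of 22 in members against 1 in the other mature L-cDC cells.

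The members were not of 1 kind. All 6125 mature cells of both libraries with at least 3 UMIs of Fscn1 were clustered on variable genes without the genes of the thresholds and without Ccr7. Cluster 4 took 210 members (64.6%) and cluster 13 took 64 (19.7%), which left 51 members elsewhere, 18 of them in cluster 14 and 15 in cluster 9. Cluster 4 held 276 L-cDC and 4 M-cDC cells in all and cluster 13 held 82 and 0, so that the thresholds caught 76.5% of the L-cDC cells of the pair. The 0 of 3225 mature M-cDC cells in cluster 13 allows a share of up to 0.0930%. A cluster that is nearly all of 1 library may be a mark of that library and not a cell type, and with 1 library each these cannot be told apart. Differences between clusters are descriptions, since the clusters were made from the same cells.

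The 26 M-cDC cells did not fall with most of the members. Cluster 14, which held 149 L-cDC and 153 M-cDC cells and was led by the lectins Cd209d, Cd209a and Mgl2, took 16 of them (61.5%), clusters 9 and 12 took 4 each, cluster 3 took 2, and clusters 4 and 13 took 0, which allows a share of up to 11.5%. Of the 26, 11 (42.3%) had a doublet-like score, against 22 of the 325 members (6.77%) and 61 of the 2219 other mature L-cDC cells (2.75%). Among members the doublet-like cells were unevenly spread: 8 of 18 in cluster 14, 8 of 210 in cluster 4 and 0 of 64 in cluster 13. The members of cluster 14 were also the deepest, at a median of 20446 UMIs, against 13096 in cluster 4, 8577 in cluster 13 and 10911 in cluster 9. With doublet-like cells removed from every set, 15 M-cDC cells were left. All 106 genes named by rule that were 2-fold higher or lower in members stayed past 2-fold. At a coarser resolution of 0.5 a single cluster held 274 members (84.3%) and 1 of the 26 M-cDC cells, and at a finer 2.0 the pair of main clusters stayed apart with 211 and 64 members and 0 of the 26.

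**Figure D2:**
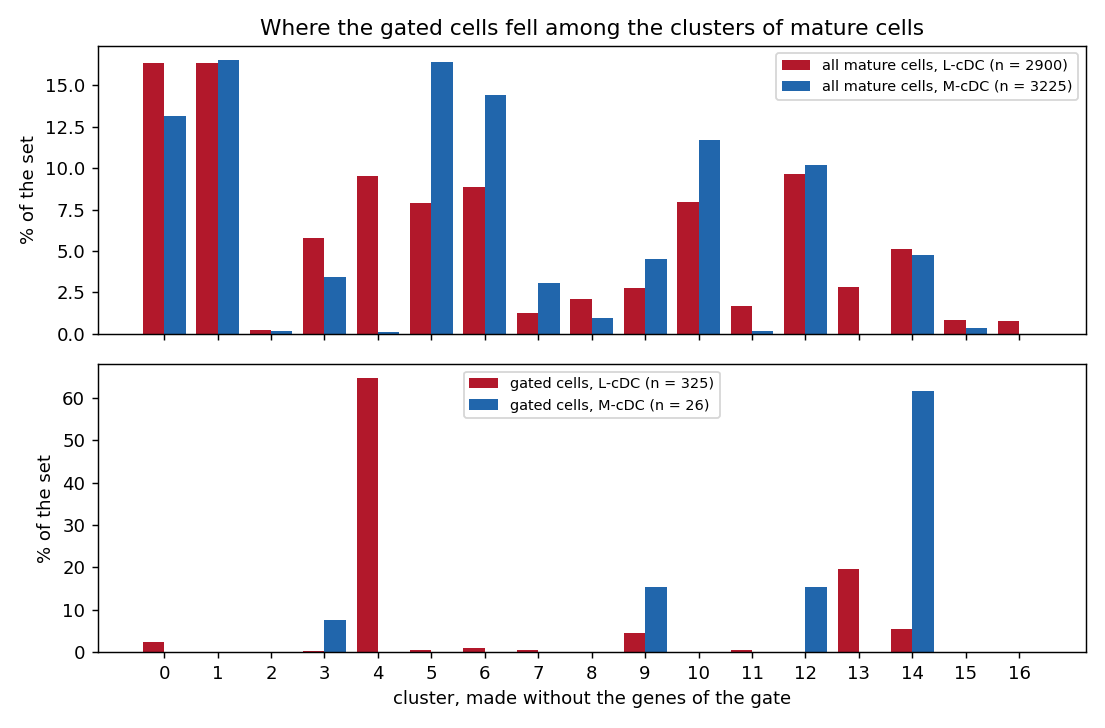
Share of all mature cells (top) and of the cells that met the thresholds (bottom) in each of 17 clusters, in percent of the set named in the legend, for L-cDC (red) and M-cDC (blue). Clusters 4 and 13 hold 64.6% and 19.7% of the members, while 61.5% of the 26 M-cDC cells are in cluster 14.

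Members of both main clusters had abundant H2-M2, which did not choose the cells, but differed in Clu, Nrp2 and Mfge8. These and Ltc4s are the 4 summed genes that chose the members. A member low in some of them had to reach the sum through the others, so their levels by cluster are a description. H2-M2 was at 2036 CPM in members of cluster 4 and 3393 CPM in those of cluster 13, and Ltc4s at 254.9 and 240.6 CPM. Clu and Nrp2 were mainly genes of cluster 4: Clu was at 544 CPM there against 119 CPM in cluster 13, and Nrp2 at 424 against 84.3 CPM. Mfge8 had the opposite order, with 120 CPM in cluster 4 and 904.5 CPM in cluster 13. Cluster 4 members thus gave 89.2% of all Clu UMIs of the members and 85.6% of those of Nrp2, and the 64 cells of cluster 13 gave 53.3% of those of Mfge8. In the members of cluster 14 the sum was reached mostly through Nrp2, at 191 CPM, with Ltc4s at 10.3 CPM.

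Cluster 4 was led by Mucl1, a mucin-like secreted protein, and by Blnk, an adaptor of B cell receptor signalling. Mucl1 was at 90.2 CPM in its members and had no UMI in the members of clusters 13, 14 and 9, but 21 cells carried all its UMIs and 1 of them 33.3%. Blnk was at 90.96 CPM in cluster 4, 17.6 CPM in cluster 13 and 3.04 CPM in the other mature L-cDC cells. The epithelial transcription factor Ehf was at 200.3 CPM in members of cluster 4, 1.76 CPM in those of cluster 13 and 29.0 CPM in the other mature cells. Zeb2, a repressor that in dendritic cells is known for its part in lineage choice, was at 306.3, 17.6 and 135.8 CPM in the same order, and the intermediate filament Vim at 3166, 1400 and 384 CPM. Cluster 4 also had Fabp4, a carrier of fatty acids, at 49.5 CPM, Itga1, a collagen-binding integrin chain, at 43.3 CPM and the chemokine Ccl24 at 20.5 CPM, all at 0 in cluster 13, though 1 cell gave 57.1% of the Ccl24 UMIs.

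Cluster 13 was led by Calm4, a calmodulin-like protein known from skin, which was at 296.8 CPM in its members, 37.8 CPM in those of cluster 4 and 5.47 CPM in the other mature L-cDC cells. Its members also had Cd207 (langerin, the lectin of Langerhans cells) at 57.96 CPM against 0.367 CPM in cluster 4, and Epcam, an epithelial adhesion molecule of Langerhans cells, at 161.6 against 8.07 CPM. The secreted peptide adrenomedullin (Adm) was at 101.9 CPM in cluster 13, 22.7 CPM in cluster 4 and 5.52 CPM in the other mature cells. Of 9 Langerhans cell genes, 4 had enough counts. Over all members none of these was 2-fold higher or lower, with a median of 0.20, while in members of cluster 13 2 were higher and 1 lower with a median of 1.59, and 86.8% of the 38 UMIs of Cd207 came from cluster 13. Thinned to 3000 UMIs, 2.77% of the members of all clusters, 0.139% of the other mature cells and 9.56% of the resting Xcr1-positive cells had a UMI of Cd207. Resting cells of the library thus carried the gene too. The thinned share in members of cluster 13 alone was not taken, so it cannot be set against that of the resting cells. The chemokine Ccl5 was at 10459 CPM in cluster 13, 6779 CPM in cluster 4 and 5537 CPM in the other mature cells. Malat1, a nuclear RNA, took 12.02% of the UMIs in cluster 13, 3.98% in cluster 4 and 9.18% in the other mature cells, and the median mitochondrial share was 3.92%, 2.57% and 2.63%. The part of RNA quality in these differences was not tested.

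Some L-cDC cells of cluster 4 missed the thresholds. These 66 cells had a median depth of 7930 UMIs and carried H2-M2 at 1811 CPM, Clu at 341.8 CPM, Nrp2 at 181 CPM, S100a4 at 1548 CPM, Blnk at 69.5 CPM and Mucl1 at 117 CPM. For Nrp2 and Clu, which the sum uses, they lay below the members of the cluster. Conversely the 257 L-cDC cells that met every threshold but the sum had H2-M2 at 520.4 CPM, Clu at 5.0 CPM and Cd209d at 446.7 CPM, with H2-Ab1 at 6118 CPM. For H2-M2, Cd209d and H2-Ab1 the members of cluster 14 were closer to these cells, at 671, 583 and 6142 CPM, than to those of cluster 4.

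**Figure D3:**
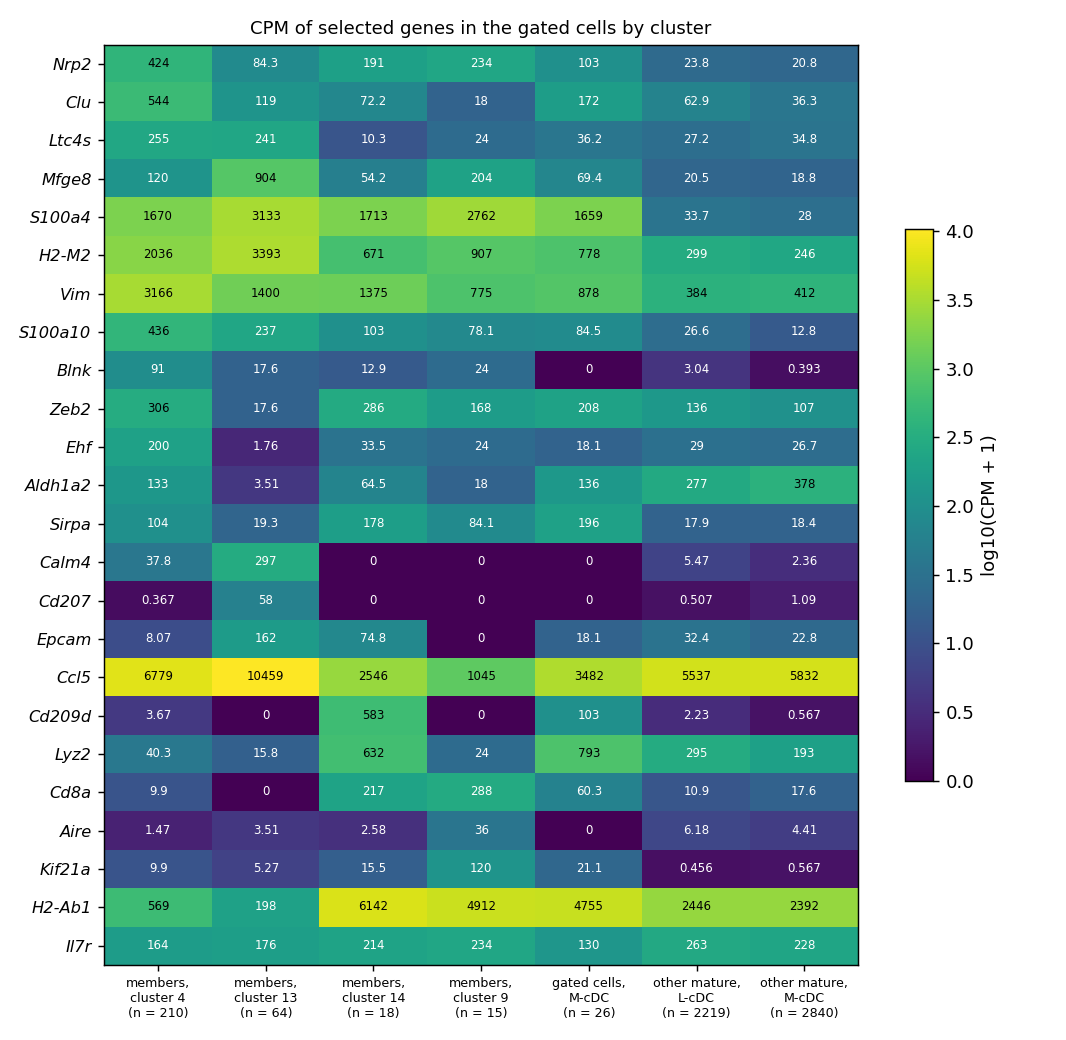
CPM of 24 genes (rows) in members of 4 clusters, in the 26 M-cDC cells that met the thresholds and in the other mature cells of each library (columns, with the number of cells). The colour shows log10(CPM + 1) and the printed values are CPM; Clu and Nrp2 are highest in cluster 4, Mfge8, Calm4 and Cd207 in cluster 13, and H2-Ab1 is lowest in those 2 columns.

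Many genes differed in level between the members and the other mature L-cDC cells. Of 4891 genes outside the thresholds with at least 20 CPM in the higher set and at least 50 UMIs over both, 358 were at least 2-fold higher (7.32%) and 256 at least 2-fold lower (5.23%) in members, and the median log2 ratio was 0.064. Against the other mature M-cDC cells, 332 of 4917 genes were at least 2-fold higher (6.75%) and 309 at least 2-fold lower (6.28%). These calls describe 1 library by a fixed size. Counts given below for gene lists are to be read beside the 7.32% and 5.23% over all genes. A gene needed 20 CPM in only 1 of the sets, so some genes entered a list only through the set where they are high. That requirement shapes the counts and medians of the lists, which are descriptions. A single gene model, Gm42418, which is known to overlap ribosomal RNA sequence, took 11.1% of all UMIs of the members, 4.02% of those of the other mature L-cDC cells, 3.63% of those of the other mature M-cDC cells and 3.97% of those of the 26 M-cDC cells. Malat1 took 5.07%, 9.18%, 9.14% and 4.71%. With both left out of the totals, 463 genes were higher and 262 lower, and the median over all genes was 0.135. The part that these RNAs have in other differences was not tested. The counts depend on the level required: with a minimum of 5 CPM the genes higher in members numbered 970 and the genes lower in members 548, and with 50 CPM they numbered 127 and 143.

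The genes of highest ratio were mostly rare in the other mature cells of either library. Bahcc1, a chromatin-binding protein, was at 33.1 CPM in members, 0.406 CPM in the other mature L-cDC cells and 0.218 CPM in the other mature M-cDC cells, which made it 81.6-fold higher (40.2 to 192.8) in members than in the former. It was found in 27.7% of members and 0.361% of the others, and after thinning to 3000 UMIs in 9.85% and 0.0925%, with none of the resting Xcr1-positive cells. Cadm3, an adhesion molecule of the nectin-like family, was at 27.7 and 0.760 CPM in L-cDC. Tead2, a transcription factor of the Hippo pathway, was at 20.2 and 0.558 CPM. Cadm3 and Tead2 had log2 ratios of 5.19 and 5.18. The secreted dickkopf-like protein Dkkl1 (4.91), the neurturin receptor Gfra2 (4.55), the epoxide hydrolase Ephx1 (4.55), Blnk (4.46), the mitochondrial calcium uniporter subunit Mcub (4.16) and the calcitonin receptor partner Ramp1 (3.91) followed, with log2 ratios in parentheses.

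Some of these genes were shared with the 26 M-cDC cells and others were not. Cadm3 was at 33.2 CPM in the 26 cells, Gfra2 at 39.2 CPM and Ramp1 at 57.3 CPM, close to or above the members. Ramp1 was also found, after thinning, in 29.4% of resting Xcr1-positive cells against 13.5% of members. Bahcc1, Ephx1, Blnk and Fabp4 had no UMI there, which at the floor of 3 counts allows up to 9.05 CPM. Members had these at 33.1, 40.4, 66.9 and 37.7 CPM. Clusters 4 and 13, which held none of the 26 cells, gave 87.1% (Fabp4) to 96.4% (Ephx1) of their UMIs in members. The floor covers counting error only, and Fabp4 was found in 10.8% of members, so 26 cells may hold few cells with it. Cd209a, with a log2 ratio of 3.91, rested on few cells: 6.38% of its UMIs came from clusters 4 and 13 together, and with those clusters alone the log2 ratio was 0.26.

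Genes of lowest ratio were those of the other mature cells of both libraries. Car2, carbonic anhydrase 2, was at 27.5 CPM in members against 379.1 and 280.9 CPM in the other mature L-cDC and M-cDC cells, 13.8-fold lower (11.5 to 16.8) than the former. It was found in 14.8% of members and 57.95% of the others, and after thinning in 5.54% and 43.4%, with 2.21% of the resting Xcr1-positive cells. Fndc5, a membrane precursor of a secreted peptide, was at 10.7 against 119.98 CPM. Pla2g7, which inactivates platelet-activating factor, was at 15.8 against 183.4 CPM. Acp5 (log2 ratio -3.68), Ppp1r1a (-3.43), Nme9 (-3.41), Bcl2l14 (-3.35), Rnaset2b (-3.35), Tm4sf5 (-3.06), Cpne8 (-3.05), the cyclin Ccnd2 (-3.02) and the lipid-presenting Cd1d1 (-2.95) were also among the lowest. Several of these were higher in the 26 M-cDC cells than in members, among them Acp5, Cd1d1, Bcl2l14, Ccnd2 and Fndc5, at 60.3, 187, 111.6, 184 and 30.2 CPM against 6.32, 38.7, 17.5, 50.8 and 10.7 CPM.

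The pair with the very lowest ratios rested on 2 UMIs each in members. Trpm2, a cation channel, was at 0.487 CPM against 22.7 CPM, 46.7-fold lower (12.8 to 386.6). Gzma, the granzyme A of killer cells, was at 0.487 against 23.6 CPM, 48.6-fold lower (13.4 to 402), but 1.85% of the other mature L-cDC cells carried all its UMIs. The thresholds removed cells with Nkg7 from the members alone, and with Cd79a and Nkg7 at 0 in the other mature cells too the log2 ratio of Gzma was -1.94 in place of -5.60. Without doublet-like cells it was -1.76.

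**Figure D4:**
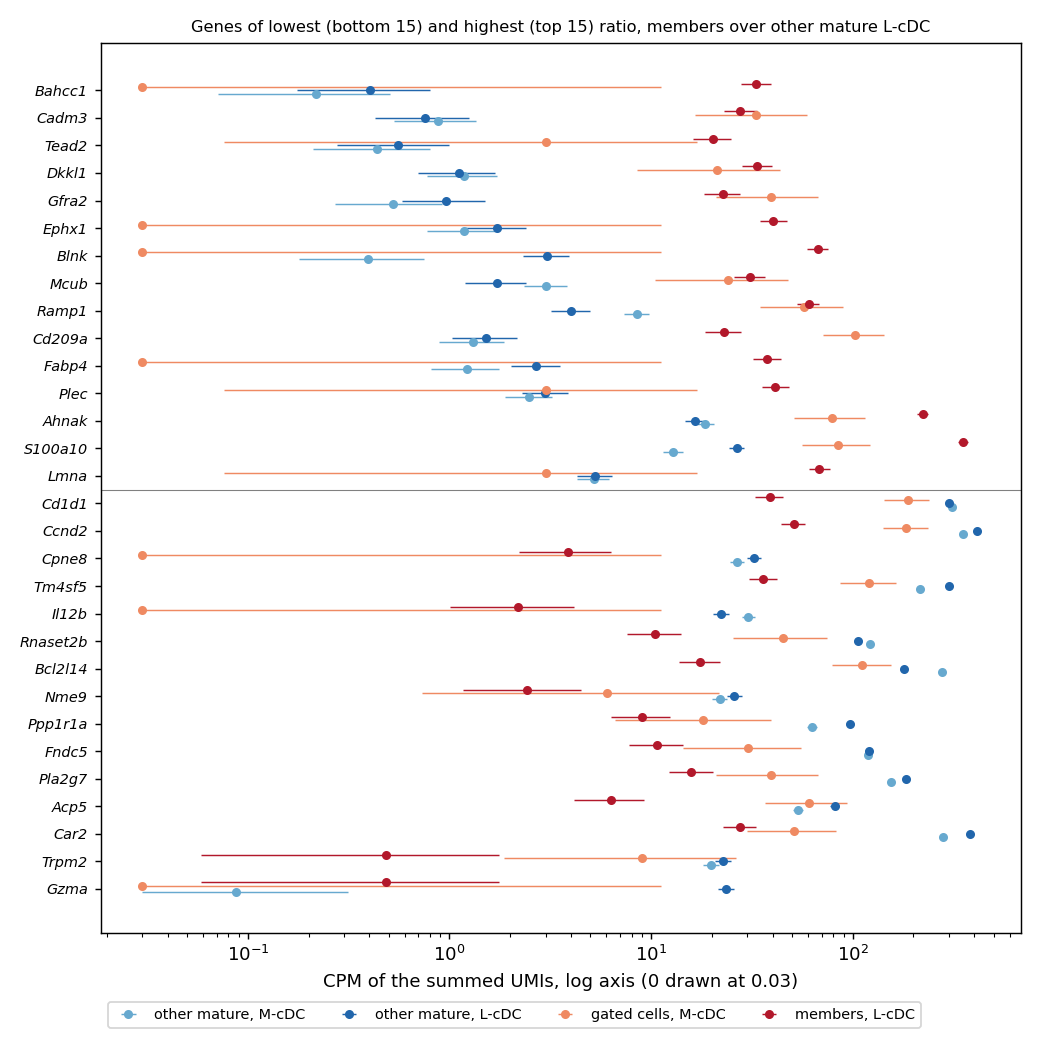
CPM of the summed UMIs on a logarithmic axis (0 drawn at 0.03) for the 15 genes of highest and the 15 of lowest ratio, with exact Poisson 95% intervals, in members, in the M-cDC cells that met the same thresholds and in the other mature cells of each library. The other mature cells of the 2 libraries lie closer to each other than to the members in all rows but Gzma, whose level was 23.6 CPM in the L-cDC set and 0.0873 CPM in the M-cDC set.

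Transcripts for antigen presentation on MHC class II were lower in the members of both main clusters and higher in those of clusters 14 and 9 than in the other mature cells. Of 11 class II pathway genes with enough counts, 0 were at least 2-fold higher and 2 at least 2-fold lower, with a median log2 ratio of -0.61 against 0.064 over all genes. The chain gene H2-Eb1 was at 1937 CPM in members, 3992 CPM in the other mature L-cDC cells and 3733 CPM in the other mature M-cDC cells, and H2-Oa, which tunes peptide loading, at 41.6, 106.1 and 90.8 CPM. The log2 ratio of H2-Eb1, -1.04, lay near the 2-fold line and was -0.68 with a sum of at least 2 as threshold and -2.01 with clusters 4 and 13 alone. The pooled value joined unlike cells. Without doublet-like cells, 5 of 11 genes were at least 2-fold lower with a median of -0.93. In members of cluster 4, 9 of 11 genes were at least 2-fold lower with a median of -1.89, and in those of cluster 13, 10 of 11 with a median of -2.82. H2-Ab1 was at 569 and 198.5 CPM there, against 6142 CPM in members of cluster 14, 4912 CPM in those of cluster 9, 4755 CPM in the 26 M-cDC cells and 2446 CPM in the other mature L-cDC cells. The invariant chain Cd74 followed the same order, at 5680, 2626, 22488, 19850, 17803 and 12553 CPM, and the class II regulator Ciita was at 23.8 and 0 CPM in the 2 main clusters against 93.4 CPM in the other mature cells.

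The classical class I pathway was nearly level. Of 15 genes, 0 were higher and 1 lower by 2-fold, with a median of -0.44: H2-K1 was at 3425 CPM in members and 4258 CPM in the other mature cells, and Psmb9, a subunit of the immunoproteasome, at 451.7 and 966.7 CPM (log2 ratio -1.10). Among 9 nonclassical class I genes H2-M2 was higher, and Cd1d1 (-2.95) and H2-Q10 (-1.30) were lower. H2-Q7 (-0.93) and H2-T23 (-0.66) stayed within 2-fold. Several class I genes have near-identical copies, and how the counting split their reads is uncertain. H2-M2 was the only gene of the 9 that was at least 2-fold higher.

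The members had more transcripts of several S100 genes and their partners than the other mature cells, from which the thresholds split them on S100a4. Of 18 genes of the S100, annexin and galectin list with enough counts outside the thresholds, 6 were at least 2-fold higher and 0 lower, with a median of 0.11. S100a10, the partner of annexin A2, was at 352.2 CPM in members, 26.6 CPM in the other mature L-cDC cells and 12.8 CPM in the other mature M-cDC cells, 13.2-fold higher (11.97 to 14.7) than in the L-cDC cells. Ahnak, a giant scaffold that binds that pair, was at 221.9, 16.4 and 18.6 CPM, and so reached the required 20 CPM only in members. Vim was at 2583, 384.4 and 412.4 CPM, and per cell ran from 0 over a median of 21 to 232 UMIs in members against 0 over 1 to 56 in the other mature L-cDC cells. S100a6 (log2 ratio 2.68), the galectin Lgals1 (1.27) and Anxa2 itself (1.12) completed the group, while S100a11, Crip1, Tagln2 and Lgals3 were between -0.55 and -0.28. After thinning, S100a10 was found in 45.5% of members, 4.81% of the other mature cells and 13.97% of resting Xcr1-positive cells. For Ahnak these shares were 28.6%, 3.79% and 27.9%, and for Vim 90.5%, 45.6% and 83.1%, so in shares of cells both were close to the resting cells. S100a6 was not particular to the members, at a median of 7 UMIs per cell in them and in the 26 M-cDC cells. After thinning it was found in 80.6% of members and 84.6% of the 26 cells, while S100a10 was found in 11.5% of the 26.

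Most actin genes stayed within 2-fold, as did 4277 of all 4891 genes with enough counts. Of the latter 7.32% were higher and 5.23% lower, so the actin counts lay near the shares over all genes. Of 38, 3 were higher and 1 lower by 2-fold with a median of 0.02: plectin (Plec, 3.79), the capping protein Capg (3.35) and filamin A (Flna, 1.69) were the higher, and the nuclear lamin Lmna, outside that list, had a log2 ratio of 3.70. Of 16 integrin and adhesion genes 5 were at least 2-fold higher and 0 lower: Itga1 (2.83), the hyaluronan receptor Cd44 (1.53), Itgb2 (1.35), the CD11c chain Itgax (1.23) and the disintegrin Adam23 (1.003). Without doublet-like cells 4 were higher, Adam23 being at 0.9997. Cd44 was at 537.3 CPM in members against 185.5 CPM, with 676.7 CPM in cluster 4 and 254.7 CPM in cluster 13. Itgb2 depended on the smaller clusters, with a log2 ratio of 0.73 in the 2 main ones. Itga1 and Itgb2 reached the required 20 CPM only in members.

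Partners of Nrp2 in the neuropilin, plexin and semaphorin list moved both ways. Of 7 genes, 3 were higher and 1 lower by 2-fold with a median of 0.90. Plexin B2 (Plxnb2) was at 20.9 CPM in members and 3.04 CPM in the other mature cells, Plexin D1 (Plxnd1) at 94.1 and 31.2 CPM, and the membrane semaphorin Sema4a at 117.0 and 18.7 CPM. St8sia4 had the opposite order at 120.9 and 372.4 CPM. It is the enzyme that builds polysialic acid, including the chain known on neuropilin 2 of dendritic cells. Sema4a was found, after thinning, in 23.1% of members, 4.11% of the other mature L-cDC cells and 16.9% of resting Xcr1-positive L-cDC cells. Of the 26 M-cDC cells 3.85% had it. Resting cells of the library thus carried Sema4a too. Among the leukotriene and prostanoid genes other than Ltc4s, of 6 with enough counts 1 was higher and 2 lower. Alox5ap, which hands arachidonic acid to 5-lipoxygenase, was at 22.6 and 7.55 CPM, but 60.2% of its UMIs came from cluster 14, and its log2 ratio of 1.58 turned to -0.32 with the 2 main clusters alone. Ptgs2, the inducible cyclooxygenase, was at 2.68 and 20.4 CPM. Of the genes for uptake of dying cells other than Mfge8, 4 had enough counts, 0 were higher and 1, the scavenger receptor Cd36, was lower at 3.16 against 21.1 CPM.

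Of 7 chemokines 5 were at least 2-fold higher and 0 lower, with a median of 1.34, which is the value of Cxcl9. Cxcl13, Ccl9 and Cxcl9 reached the required 20 CPM only in members, so that requirement shapes this count and median, which are a description. Single cells gave 60.4% of the Cxcl13 UMIs and 61.6% of those of Cxcl9, and without those 2 cells 3 of 5 chemokines were higher with a median of 1.08. Cxcl13, which attracts B cells, was at 32.6 CPM in members and 2.23 CPM in the other mature L-cDC cells, and 97.0% of its UMIs came from cluster 4, but without the cell that gave most of them it was at 12.9 CPM. Ccl9 was at 68.6 and 5.68 CPM, of which cluster 4 gave 86.5%. The Ccr4 ligands Ccl17 and Ccl22 were at 325.2 and 1061 CPM in members against 103.8 and 506.1 CPM, at log2 ratios of 1.65 and 1.07, which fell to 0.93 and 0.60 when the thresholds were applied to thinned cells. The fifth gene, Cxcl9, rested on 1 cell: without it the level was 12.9 CPM against 13.3 CPM in the other mature cells. Of its UMIs 85.5% came from cluster 14, and its log2 ratio of 1.34 turned to -1.28 with the 2 main clusters alone. Among receptors for such signals, Cxcr4, the receptor for Cxcl12, was at 45.5 CPM against 9.17 CPM and Ccrl2 at 10.2 against 24.2 CPM.

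Few cytokine genes had enough counts. Of 7, 1 was higher and 3 lower by 2-fold with a median of -0.50. Il12b, a chain that 2 interleukins share, was at 2.19 CPM in members, 22.3 CPM in the other mature L-cDC cells and 30.4 CPM in the other mature M-cDC cells. Ebi3 (-1.66) and Il1b (-1.42) were the others, and Il18 was higher at 22.4 against 3.95 CPM. Il18 reached the required 20 CPM only in members, and Il12b only in the other mature cells. Of 22 receptor genes 3 were higher and 1 lower, beside 7.32% and 5.23% of all genes with enough counts. Il6ra was at 36.2 against 4.16 CPM and Il13ra1 at 82.5 against 36.7 CPM. Il2ra was at 30.4 against 13.8 CPM and Il21r at 63.0 against 126.4 CPM. Il6ra was found, after thinning, in 8.62% of members, 1.53% of the other mature L-cDC cells and 13.2% of resting Xcr1-positive L-cDC cells. It was also found in 11.5% of the 26 M-cDC cells, so Il6ra was not particular to the members. Il7r itself, whose history defined the sort, was at 175.4 CPM in members, 263.0 CPM in the other mature L-cDC cells, 227.5 CPM in the other mature M-cDC cells and 129.7 CPM in the 26 M-cDC cells, so members did not stand out for the transcript.

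Of the 27 maturation genes 3 were higher and 4 lower, beside 7.32% and 5.23% of all genes with enough counts. Besides Ccl17 and Ccl22, Eno2 was higher (1.09), and Il12b, the checkpoint ligand Pdcd1lg2 (-1.94), Cd200 (-1.52) and the retinoic acid enzyme Aldh1a2 (-1.33) were lower. Cd40 was at 227.0 against 202.6 CPM, Cd86 at 44.8 against 37.2 CPM and Cd83 at 223.6 against 261 CPM, all within 2-fold. Aldh1a2 was at 109.95 CPM in members, 277.3 CPM in the other mature L-cDC cells and 377.9 CPM in the other mature M-cDC cells, with 133 CPM in cluster 4 and 3.51 CPM in cluster 13. Of 6 retinoic acid and TGF-beta activation genes, 0 were higher and 2 lower, the second being Dhrs3 (-1.62). Of 19 survival and death genes 0 were higher and 2 lower, Bcl2l14 and the death-promoting Bcl2l11 (21.4 against 128.5 CPM).

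Markers of the conventional dendritic cell lineages differed between the clusters of members. Xcr1 and Clec9a, of type 1 conventional dendritic cells, were at or under 6.004 and 5.16 CPM in members of the 4 clusters, and in the other mature L-cDC cells at 8.01 and 9.33 CPM. Of 5 type 1 genes with enough counts 2 were higher, Cd8a (1.99) and Wdfy4 (1.57). Both turned with the 2 main clusters alone, to -0.41 and -0.96: Cd8a was at 216.7 CPM in members of cluster 14, 288.2 CPM in those of cluster 9, 9.90 CPM in cluster 4 and 0 in cluster 13. Of 9 type 2 genes 4 were higher and 1 lower, beside 7.32% and 5.23% of all genes with enough counts. The 4 higher ones, like Cd8a and Wdfy4, reached the required 20 CPM only in members, and Esam only in the other mature cells. That requirement thus shapes these counts, which are a description. Sirpa, the receptor for CD47, was at 95.4 CPM in members against 17.9 CPM, with 103.8 CPM in cluster 4 and 19.3 CPM in cluster 13. Clec12a (1.92) was at 31.9 CPM in cluster 4, while Cd209a and Cd209d (4.80) came from cluster 14, which gave 88.6% of the Cd209d UMIs and where the latter was at 583 CPM. Esam, an adhesion molecule of splenic type 2 cells, was at 9.73 against 48.4 CPM.

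Genes of monocytes and plasmacytoid cells were spread unevenly over the clusters. The galectin Lgals3 and the plasmacytoid marker Bst2 had 64.7% and 62.6% of their UMIs in the 2 main clusters. Ms4a6c was higher at 70.1 against 10.9 CPM, but 78.8% of its UMIs came from cluster 14 and the log2 ratio of 2.68 turned to -0.85 with the 2 main clusters alone. Lyz2 was at 95.4 CPM in members against 294.9 CPM, with 40.3 CPM in cluster 4, 15.8 CPM in cluster 13 and 632 CPM in cluster 14. Tcf4, an E protein needed by plasmacytoid cells, was at 128 against 39.7 CPM, with 89.1 CPM in cluster 4 and 552 CPM in cluster 14, and its log2 ratio of 1.69 was 0.92 with the 2 main clusters alone. The transcription factor Bcl11a (1.60) had 73.1% of its UMIs in cluster 14 and turned to -0.60 with the 2 main clusters alone. Aire, a regulator of self-antigen expression, was scarce in the main clusters, at 1.47 and 3.51 CPM in clusters 4 and 13, against 36 CPM in the 15 members of cluster 9. Of 27 transcription factors with enough counts 3 were higher, Tcf4, Bcl11a and Prdm1 (42.1 against 14.497 CPM), and 1 was lower, Id2 (636.1 against 1371 CPM).

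Lysosomal, lipid and redox genes lay on both sides. Prosaposin (Psap) was at 589.4 CPM in members, 186.5 CPM in the other mature L-cDC cells and 304.0 CPM in the other mature M-cDC cells. Npc2, which moves cholesterol out of lysosomes, was at 1150 against 391.8 CPM, with 1457 CPM in cluster 4 and 389.9 CPM in cluster 13. Of 21 cholesterol genes 2 were higher and 0 lower, with a median of 0.11, beside 7.32% and 5.23% of all genes. Of 17 lysosomal genes 3 were higher and 2, Ctsz and Lgmn, lower, with a median of -0.11. The metallothioneins Mt2 (49.9 against 12.5 CPM) and Mt1 (log2 ratio 1.33), the thioredoxin reductase Txnrd1 (1.78) and catalase (Cat, 1.34) were higher among 18 redox genes, and the glutathione-synthesis gene Gclc (-1.79) and the peroxiredoxin Prdx5 (-1.13) lower. Of 12 glycolysis genes 3 were higher and 0 lower: Ldha (1.23), Eno2 (1.09) and Tpi1 (1.07), while Gapdh was at 494.5 against 748.9 CPM. Interferon-stimulated genes had 3 higher and 3 lower of 19 and the lowest median of the lists with at least 5 genes, -0.65.

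**Figure D5:**
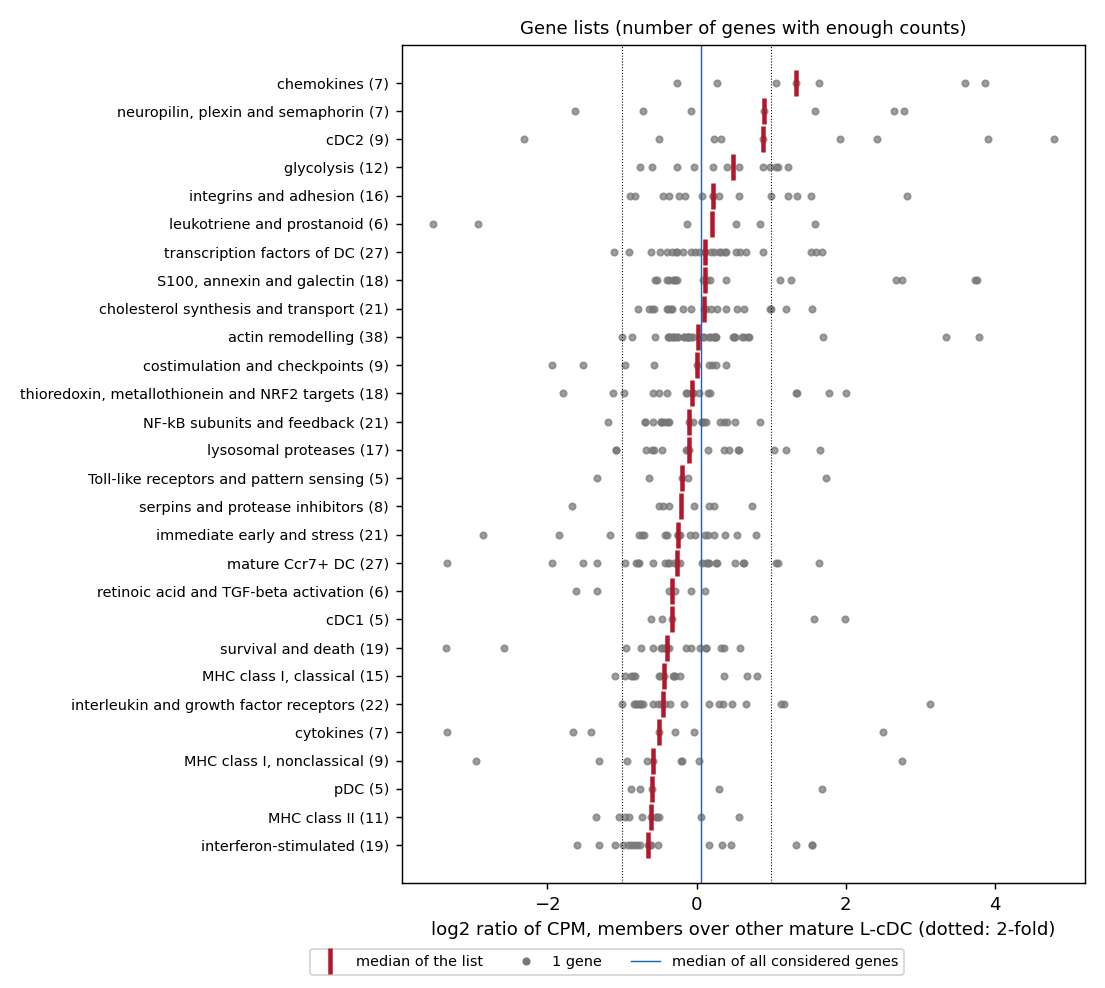
Log2 ratio of CPM, members over other mature L-cDC cells (horizontal axis), for each gene with enough counts (grey points) in lists of at least 5 such genes (rows, with their number), with the list's median in red. The blue line is the median of all 4891 genes, 0.064, and the dotted lines mark 2-fold. Chemokines have the highest median, 1.34, which falls to 1.08 without 2 cells, and interferon-stimulated genes the lowest, -0.65. Some genes, 3 of the chemokines among them, reached the required 20 CPM in only 1 of the sets, which shapes the medians.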

How the data were processed

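The authors deposited 1 matrix of unnormalised UMI counts per library, with 31053 genes each. Its header names Cell Ranger 6.1.2, and the submitters' processing notes name GRCm38 (mm10). The members and gene lists were chosen with earlier results of these data known.

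UMIs of each set of cells were summed and scaled to CPM, with exact Poisson 95% intervals, and ratios have exact conditional binomial 95% intervals. Genes of the thresholds and Ccr7 were left out of counts and medians. The calculation was tested on simulated data. Named are the 15 genes of highest and of lowest ratio whose interval leaves out 1 and of which 1 cell gives at most 25% of the UMIs, other than unnamed models and immunoglobulin, receptor, hemoglobin, mitochondrial, ribosomal and sex-linked genes, up to 4 per list and a set of lineage genes; other genes, those of the clusters among them, were chosen after their values were seen. Thinning drew 3000 or 5000 UMIs per cell without replacement. Doublets were scored, not removed, with Scrublet (expected rate 0.08) and the lower of the automatic thresholds, 0.258, in both libraries. Clustering used 2000 variable genes, 30 components, 15 neighbours and Leiden at resolution 1.0. Alternatives varied filters, thresholds, depth, comparator and scaling. Coordinates came from a GENCODE annotation of GRCm38 (175 of 175 found). Clustering ran in scanpy 1.11.5 with igraph 0.11.9 and scikit-learn 1.9.0, intervals in scipy 1.17.1, tables in pandas 2.3.3 and numpy 2.4.6, and figures in matplotlib 3.10.9, under Python 3.11.15.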

Additional observations from a re-analysis of the deposited data

Results flagged for a closer look

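For 2 genes the cells that met the thresholds lay on opposite sides of the other mature cells of their own library. H2-Oa had a log2 ratio of -1.35 in L-cDC and 1.30 in M-cDC. Lyz2 had a log2 ratio of -1.63 in L-cDC and 2.04 in M-cDC. With 1 library each the difference was not tested. The 26 M-cDC cells fell mostly in cluster 14, whose L-cDC members had H2-Oa at 126 CPM and Lyz2 at 632 CPM.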

How the results depend on the processing

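Of 106 named genes at 2-fold or more, all kept their direction under 15 of 19 alternatives. The exceptions were Cxcl9 (-0.033) without the top cells of Cxcl9 and Cxcl13 (chosen after seeing the data), Cxcl9 (-0.77) and Ms4a6c (-0.010) with thresholds on thinned cells, Alox5ap (-0.41) and Wdfy4 (-0.15) with mature M-cDC cells as comparator, and, with members of the 2 main clusters alone (an alternative chosen after seeing the data), Alox5ap (-0.32), Bcl11a (-0.60), Cd8a (-0.41), Cxcl9 (-1.28), Ms4a6c (-0.85) and Wdfy4 (-0.96). Between 91 (thresholds on thinned cells) and all 106 stayed past 2-fold. The log2 ratio of H2-M2 was 2.48 to 3.03 under all 19. List medians that turned were those of type 1 dendritic cells, at 0.40 with a sum of at least 2, 0.033 with cells thinned to 3000 UMIs and 0.28 with Gm42418 and Malat1 left out of the totals (also chosen after seeing the data), and of retinoic acid genes, at 0.12 with a minimum of 5 CPM. The genes higher in members were 970 and the genes lower in members 548 at 5 CPM, where more genes are counted, and 127 and 143 at 50 CPM, where fewer are. With thresholds on thinned cells 193 members and 4 M-cDC cells were left, and M-cDC cells numbered 15 without doublet-like cells, 54 with a sum of at least 2 and 7 with a sum of at least 6, all changes of the cells admitted. No paired analysis was possible because each group has 1 library and no replicates. Depth limits the 26 M-cDC cells most: at 331469 UMIs in all, a gene with no UMI there may be at up to 9.05 CPM by counting error alone.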
